A study of Homo sapiens with 6 samples.

Results

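The sideroflexins are a family of 5 human genes, SFXN1 to SFXN5, and all 5 were found by symbol among the 58735 genes of the count table. The family was chosen by a measured value, the fall of SFXN2 mRNA in curcumol, which is the largest of the series among the 10431 tested genes with a mean of at least 100 counts per library. The values of SFXN2 are therefore given as a description, without a test. The other members belong to the set by name. All 5 members passed the filter on low counts, and 15160 genes were tested in all.

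The cells were ACHN, a long-established line of human kidney cancer cells, labelled by the submitters as clear cell renal cell carcinoma of wild-type genotype. Libraries of poly(A)-selected RNA were made from 3 control cultures and 3 cultures treated with curcumol, a sesquiterpenoid of Curcuma rhizomes, and the series describes them as independent biological replicates. The control is called a vehicle control in the sample labels and untreated in the series design. Neither the dose nor the duration of treatment is given in the sources.

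Sideroflexins are proteins of the inner mitochondrial membrane with several membrane-spanning helices. They are built unlike the large SLC25 carrier family, but like it they reach the inner membrane through the TOM and TIM22 import machinery. SFXN1 carries serine into mitochondria, where serine feeds the folate one-carbon cycle, and SFXN3 can take its place. SFXN2 has been tied to heme synthesis and to mitochondrial iron. SFXN4 is needed for complex I assembly and iron-sulfur cluster formation, and SFXN5 has been proposed to carry citrate.

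The promoters of the members with the largest falls are shown because these 2 genes stand apart from the rest of the family. Each window runs from 250 bases before to 50 after the RefSeq start site and was taken from RefSeq (GRCh38.p14), in which all 5 members were matched. SFXN2 is at chr10:102714386-102714685, plus strand, and SFXN4 at chr10:119165643-119165942, minus strand. Capitals mark the E-box CACGTG and the CCAAT box on either strand, so that ATTGG is a CCAAT box on the other strand.
SFXN2: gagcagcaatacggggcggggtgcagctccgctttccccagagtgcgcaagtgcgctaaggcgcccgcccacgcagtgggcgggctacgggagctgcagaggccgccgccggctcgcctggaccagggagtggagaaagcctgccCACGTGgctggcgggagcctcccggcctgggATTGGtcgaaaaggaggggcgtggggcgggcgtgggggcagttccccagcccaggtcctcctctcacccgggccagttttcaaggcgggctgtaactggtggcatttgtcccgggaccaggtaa
SFXN4: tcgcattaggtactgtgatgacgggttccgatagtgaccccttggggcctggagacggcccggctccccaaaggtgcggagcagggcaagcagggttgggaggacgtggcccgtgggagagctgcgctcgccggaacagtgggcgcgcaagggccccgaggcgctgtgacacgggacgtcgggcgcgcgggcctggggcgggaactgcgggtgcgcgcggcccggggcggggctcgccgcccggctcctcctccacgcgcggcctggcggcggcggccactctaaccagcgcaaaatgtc
The SFXN2 window is also the start of its neighbour ARL3, which is transcribed in the opposite direction from position 102714407. There are 228 bases between that position and the RefSeq start of SFXN2 at 102714636. The E-box lies 105 to 100 bases before the RefSeq start (102714531 to 102714536), and the CCAAT box begins 74 bases before it. In GENCODE the longest coding transcript of SFXN2 starts 96 bases before the RefSeq start, at 102714540, so the E-box ends just before that start and the CCAAT box lies inside the transcript.

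Several letter patterns were searched on both strands in 1 window of each member, the one nearest to the start of its longest coding transcript, and in all 35116 RefSeq windows. The E-box CACGTG was found in SFXN2 alone of the 5, and in 7.26% of all windows. The CCAAT box was found in SFXN2, SFXN3 and SFXN5, and in 34.6% of all windows. ACGTG, the core of the hypoxia response element, was found in SFXN2, where it is part of the E-box, and in SFXN4, 147 bases before the start. It was present in 21.4% of all windows. TGACNNNGC, the core of the antioxidant response element, was found in SFXN3 (13.3% of all windows). GAANNTTC of the heat shock element (6.77%), TGATGNAA of the ATF4 element (3.62%) and the cAMP response element TGACGTCA (1.85%) were in the window of 0 of the 5 members. These matches describe letters only.

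All 5 sideroflexin mRNAs were lower in the curcumol libraries than in the control libraries, but by amounts that ranged from 1.22-fold to 81.2-fold in mean CPM (counts scaled to library size with TMM factors). SFXN2 nearly disappeared from the libraries, SFXN4 fell to 21.8% of its control mean, SFXN3 to 65.0%, and SFXN1 and SFXN5 to 79.3% and 81.9%. For each member the 3 curcumol libraries lay below the 3 control libraries. These counts stand against a wide change in the whole series: 79.7% of tested genes passed the edgeR test, 40.3% as lower and 39.4% as higher in curcumol, and 41.1% had every curcumol library below every control library. In bulk RNA, fewer cells of a kind and less RNA per cell cannot be told apart.

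**Figure D1:**
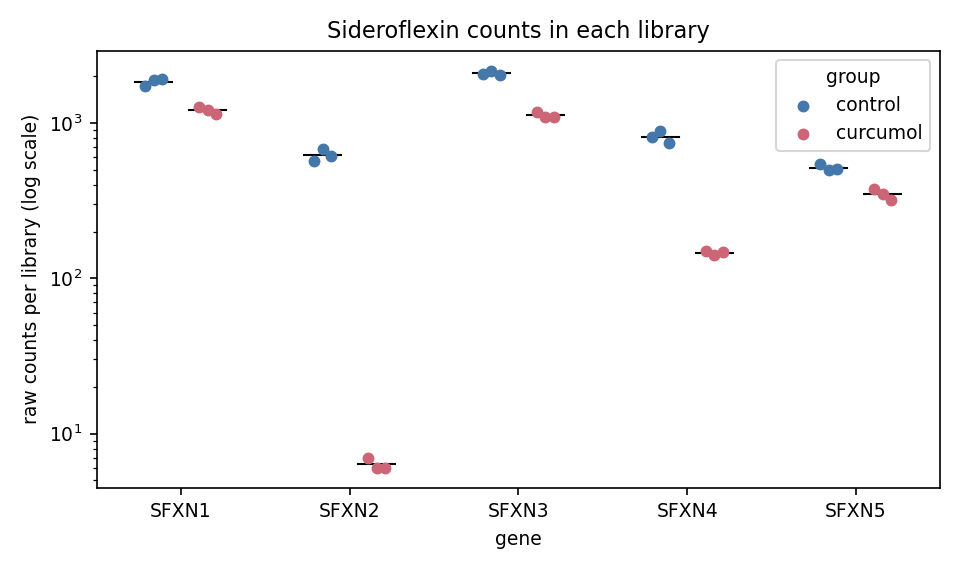
Raw counts of the 5 sideroflexin genes (x axis) in each library (y axis, log scale). Points are libraries, blue for control and red for curcumol, and black lines are group means of 3 libraries. SFXN2 stands at 570 to 682 counts in control and at 6 or 7 in curcumol, while SFXN1, SFXN3 and SFXN5 are also lower in curcumol, by less than SFXN4.

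SFXN2 (ENSG00000156398, chromosome 10, 102714538 to 102743492, plus strand, GRCh38) had 570, 682 and 617 counts in control replicates 1 to 3. In curcumol replicates 1 to 3 it had 7, 6 and 6 counts. Every curcumol library was thus close to the floor of detection, and the replicates of each group lay close together. The mean level was 32.6 ± 2.34 CPM in control and 0.401 ± 0.0408 CPM in curcumol (SD, n = 3). The fitted log2 fold change was -6.32 ± 0.18 (SE). Summed over the 3 libraries, 19 counts remained in curcumol against 1869 in control. The exact 95% Poisson interval of that sum is 11.4 to 29.7 counts, or 0.612% to 1.59% of the control sum, and covers counting error only.

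By fitted log2 fold change 9 other tested genes had a lower value than SFXN2. All 9 had 0 counts in the 3 curcumol libraries and a mean of 6.83 to 50.5 counts, so their fitted values depend on the prior count. The lowest was AC022239.1, with 303 counts summed over the control libraries. AC022239.1 stayed below SFXN2 in every setting, at -9.53 with edgeR and TMM, -8.79 with DESeq2 and -7.37 with limma-voom. Among genes with a mean of at least 100 counts, the next lower change after SFXN2 was that of the chemokine gene CXCL2 (-5.19). The rank of SFXN2 among all genes fitted was 2 with a stricter filter, 3 with limma-voom and 7 with DESeq2, and it ran from 12 to 39 when 1 library was left out and more genes of low count entered.

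**Figure D2:**
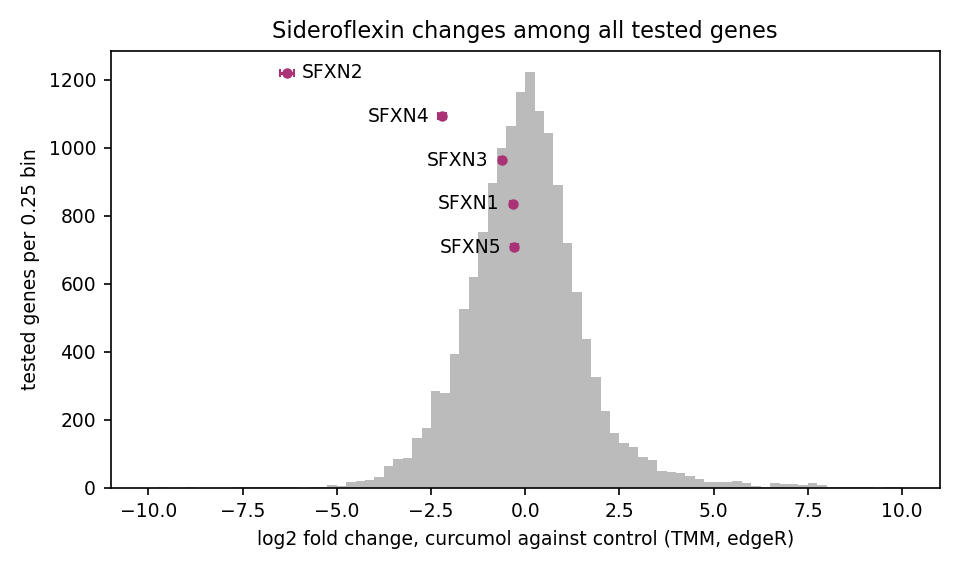
Histogram of log2 fold changes of the 15160 tested genes (grey, y axis in genes per bin of 0.25), with the 5 sideroflexins as points and their SE as horizontal bars. Heights of the points carry no value. SFXN2 lies in the far left tail at -6.32 and SFXN4 at -2.20, whereas SFXN1, SFXN3 and SFXN5 lie within the central mass.

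SFXN4 (ENSG00000183605, chromosome 10, 119140767 to 119165667, minus strand) had the second largest fall of the family. Its counts were 811, 888 and 738 in control and 149, 142 and 147 in curcumol. The curcumol libraries were nearly equal to each other, and the lowest control library was still far above them. The level went from 42.5 ± 3.98 to 9.25 ± 0.315 CPM (SD, n = 3). SFXN4 changed by -2.20 ± 0.11 on the log2 scale (SE, edgeR adjusted p = 3.14e-14). Of all tested genes, 6.75% had a lower log2 fold change.

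SFXN3 (ENSG00000107819, chromosome 10, 101031234 to 101041244, plus strand), the serine carrier closest to SFXN1, was the most counted member in control. Control replicates 1 to 3 held 2072, 2175 and 2040 counts, and the curcumol replicates 1183, 1100 and 1091. The level fell from 109.7 ± 3.796 to 71.2 ± 3.93 CPM (SD, n = 3), with no overlap of the groups. SFXN3 changed by -0.62 ± 0.07 in log2 units (SE; adjusted p = 2.75e-08 by edgeR), and 32.3% of tested genes had a lower value.

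SFXN1 (ENSG00000164466, chromosome 5, 175477062 to 175529742, plus strand), the main mitochondrial serine carrier, was counted 1721, 1904 and 1913 times in the control libraries. The curcumol libraries held 1272, 1206 and 1147 counts of it. Its level went from 96.5 ± 3.41 to 76.5 ± 4.58 CPM (SD, n = 3), again without overlap. Its change of -0.33 ± 0.07 in log2 units (SE; adjusted p = 0.000141 by edgeR) was small beside the spread of all genes, whose quartiles were -0.92 and 0.84.

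SFXN5 (ENSG00000144040, chromosome 2, 72942036 to 73075619, minus strand), the proposed citrate carrier, had the fewest counts in control. These were 546, 495 and 505, against 378, 349 and 320 in the curcumol libraries. In CPM the lowest control library (25.5) was only just above the highest curcumol library (24.2). The means were 27.0 ± 2.08 and 22.1 ± 2.01 CPM (SD, n = 3), and SFXN5 changed by -0.29 ± 0.10 in log2 units (SE; adjusted p = 0.0123 by edgeR). This call was lost without control replicate 1 (-0.23, edgeR adjusted p = 0.0683) and without curcumol replicate 3 (-0.22, edgeR adjusted p = 0.0693).

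The small falls depended on how base composition was treated. GC content of the longest transcript was 44.2% in SFXN1, 47.5% in SFXN2, 47.8% in SFXN4, 55.5% in SFXN3 and 57.7% in SFXN5. With an offset for GC content in each library, SFXN1 stood at -0.59 in place of -0.33 and SFXN3 at -0.26 in place of -0.62. SFXN5 turned to 0.19 under that offset and did not pass (edgeR adjusted p = 0.0554). SFXN2 (-6.38) and SFXN4 (-2.25) moved little. Scaling by library totals, which put the median of all genes at -0.28 in place of -0.02, gave larger falls of -0.60 for SFXN1, -0.89 for SFXN3 and -0.55 for SFXN5. The direction of SFXN5 thus differed between treatments of the same counts, and those of the other 4 members did not in any of the 14 alternatives.

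**Figure D3:**
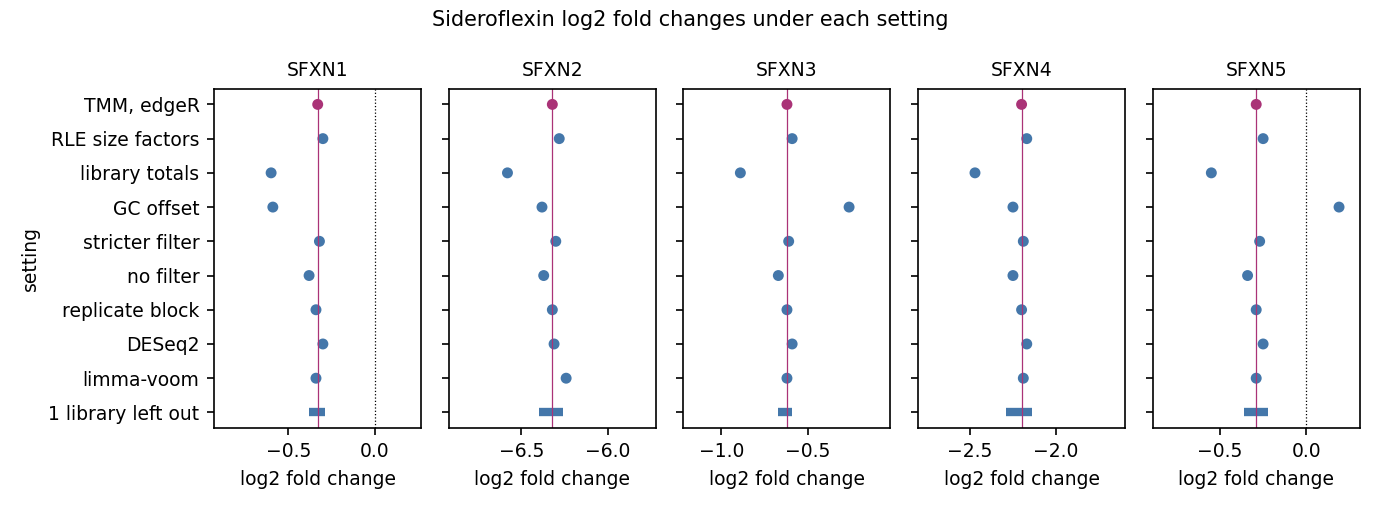
Log2 fold change (x axis) of each sideroflexin under each setting (y axis). The x axes have different positions and the same width. The purple point and line give the value with TMM scaling, blue points the alternatives, and blue bars the range when 1 library is left out. A dotted line marks 0 in the panels of SFXN1 and SFXN5, and 0 lies outside the x axes of the other panels. The point of SFXN5 with a GC offset, at 0.19, is the only one to the right of 0.

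Ratios between members within a library do not depend on scaling by library size. SFXN1 had 0.831 to 0.938 counts per count of SFXN3 in control and 1.05 to 1.10 in curcumol, so the order of their counts changed. With the GC offset SFXN1 (-0.59) fell by more than SFXN3 (-0.26), so the direction of this shift differed between treatments of GC content. Its cause was not tested. SFXN4 had more counts than SFXN5 in control, by 1.46 to 1.79 times, and fewer in curcumol, at 0.394 to 0.459. SFXN1 had 2.12 to 2.59 times the counts of SFXN4 in control and 7.80 to 8.54 times in curcumol. The ratios with SFXN2 are not used here, because its fall chose the family. SFXN1 over SFXN5 overlapped between the groups, at 3.15 to 3.85 in control and 3.37 to 3.58 in curcumol. These counts carry no GC offset. With that offset SFXN1 stood at -0.59 and SFXN5 at 0.19, in place of -0.33 and -0.29, so their changes were then apart. With 3 libraries against 3, an exact permutation test of such a ratio cannot give a two-sided p below 0.1, so none is given.

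Levels of different genes were compared per kilobase of joined exons. In control, SFXN3 (23.7 ± 0.820 CPM per kilobase) and SFXN4 (22.8 ± 2.13) were highest and did not differ beyond their spread, since their order changed in control replicate 2. SFXN1 followed at 12.7 ± 0.450, then SFXN2 at 4.05 ± 0.291 and SFXN5 at 2.44 ± 0.188 (SD, n = 3). In curcumol the order was the same in all 3 libraries. SFXN3 was first at 15.4 ± 0.848 CPM per kilobase, then SFXN1 at 10.1 ± 0.605, SFXN4 at 4.95 ± 0.169, SFXN5 at 1.99 ± 0.181 and SFXN2 at 0.0499 ± 0.00508. The place of SFXN2 in control depends on the length used. With the longest transcript in place of joined exons, SFXN2 (4.74 ± 0.341 CPM per kilobase) was below SFXN5 (6.52 ± 0.503) in control as well, and SFXN3 was above SFXN4 in every control library.

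The summed level of the family went from 65.7 ± 2.99 to 32.5 ± 1.73 CPM per kilobase (SD, n = 3). SFXN4 made up 34.6% ± 1.72 of this sum in control and 15.2% ± 0.560 in curcumol, while SFXN2 went from 6.17% ± 0.348 to 0.154% ± 0.00741. The remaining members took larger shares of the smaller sum. SFXN3 rose from 36.1% ± 0.564 to 47.4% ± 0.281 of it, and SFXN1 from 19.4% ± 1.26 to 31.1% ± 0.487, as shares and not as levels. In CPM without division by length, the 5 genes together fell to 58.2% of control, and SFXN2 accounted for 24.99% of the difference. The sums and shares include SFXN2, whose fall chose the family, so part of the summed fall was fixed by that choice.

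**Figure D4:**
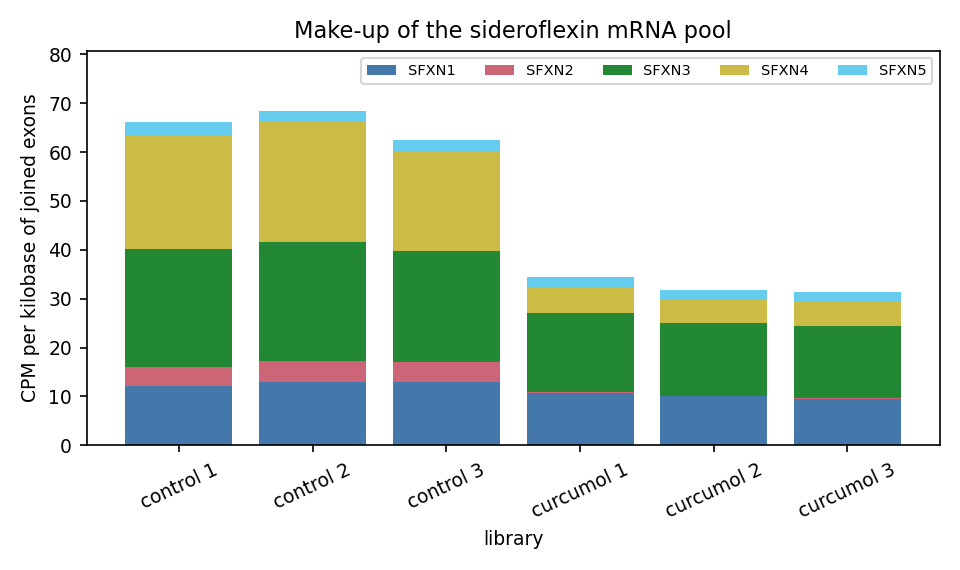
Stacked levels of the 5 sideroflexins (y axis, CPM per kilobase of joined exons) in each of the 6 libraries (x axis). Each colour is a gene. The bars are shorter in curcumol, the SFXN4 band shrinks most in height, and the SFXN2 band is too thin to see there.

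The encoded proteins differ less in length than in sequence. Their longest coding transcripts encode 322 residues for SFXN1 and SFXN2, 321 for SFXN3, 337 for SFXN4 and 340 for SFXN5. SFXN1 and SFXN3 are identical at 76.3% of aligned residues, and SFXN2 is identical to SFXN1 at 55.5% and to SFXN3 at 55.7%. SFXN5 shares 40.0% to 40.9% with these 3. SFXN4 is the most distant member, with 23.0% to 24.4% identity to SFXN1, SFXN2 and SFXN3 and 29.02% to SFXN5.

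Despite this kinship the transcripts of the members can be told apart by reads of 50 bases or more. How reads were assigned could not be checked, since no aligner or counter is named in the sources. No stretch of 50 bases was shared between transcripts of different members. Shared stretches with other genes made up 1.83% of the 50-base stretches of SFXN1, 0.551% in SFXN2, 0.482% in SFXN3, 0.711% in SFXN5 and 0 of 1986 in SFXN4. SFXN5 has 39 exonic bases, of 11087, in common with RAB11FIP5 on the same strand. No other member shares exonic bases with another annotated gene, although the bodies of SFXN3 and PDZD7 overlap on opposite strands.

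SFXN2, SFXN3 and SFXN4 all lie on chromosome 10, and the genes on either side of each were compared with it. The nearest tested protein-coding gene on the side of lower coordinates from SFXN2 is ARL3, a small GTPase of ciliary transport that starts 130 bases away on the other strand. ARL3 rose from 36.7 ± 0.432 to 58.5 ± 3.36 CPM (SD, n = 3). The change was 0.67 ± 0.08 in log2 units (SE; adjusted p = 6.92e-08 by edgeR). On the other side WBP1L, 408 bases beyond the end of SFXN2, rose by 0.48 ± 0.07 on the log2 scale (SE, edgeR adjusted p = 3.3e-06), although 1417 of its 7880 exonic bases overlap CYP17A1 on the other strand. SFXN2 is thus a gene with a change of -6.32 between a pair of close neighbours that rose, and with a GC offset these stood at 0.66 and 0.65.

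SFXN4 lies 2035 bases from PRDX3, the mitochondrial peroxiredoxin, which rose by 0.14 ± 0.05 (SE, edgeR adjusted p = 0.0195) but stood at -0.18 with a GC offset. On its other side FAM45A did not pass (-0.17 ± 0.12, or -0.41 with the offset). SFXN3 is flanked by PDZD7, which did not pass (-0.75 ± 0.36), and by KAZALD1, which fell by 0.60 on the log2 scale but stood at 0.02 with a GC offset. PDZD7 stood at -0.08 with that offset. RAB11FIP5, next to SFXN5, rose by 0.74 ± 0.07, and SPR on the other side stood at 0.09 ± 0.07 and did not pass. With the GC offset these were at 1.37 and 0.66. The nearest tested coding genes of SFXN1 were 388130 bases (THOC3) and 1515085 bases (CPEB4) away. CPEB4 rose by 3.50 ± 0.10 (2.93 with the GC offset), and THOC3 stood at -0.06 ± 0.17 and did not pass.

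**Figure D5:**
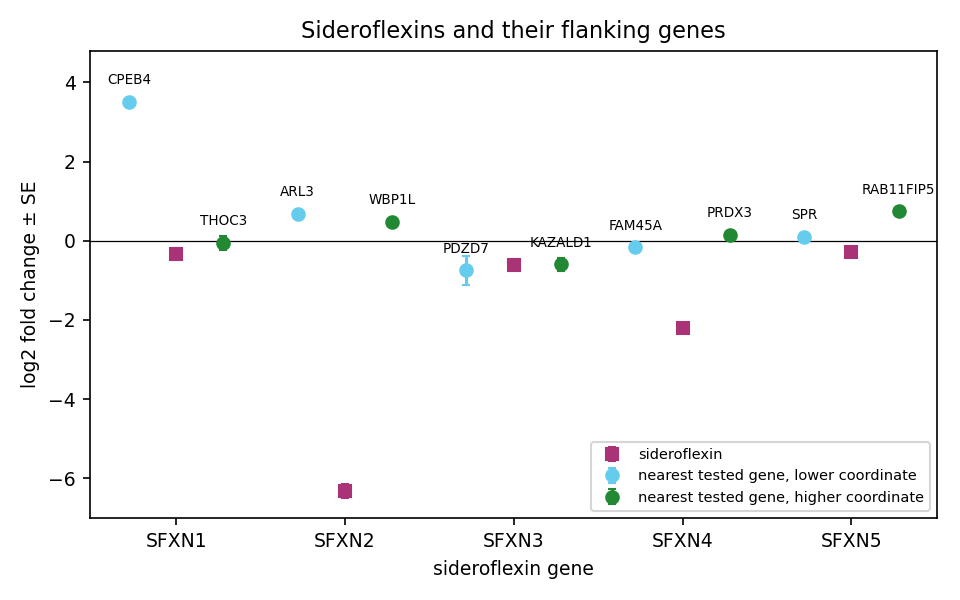
Log2 fold change with SE (y axis) of each sideroflexin (purple squares) and of the nearest tested protein-coding gene on the side of lower (light blue) and higher (green) coordinates. SFXN2 at -6.32 lies far below ARL3 (0.67) and WBP1L (0.48), and SFXN4 at -2.20 below FAM45A (-0.17) and PRDX3 (0.14).

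The genes with the most similar pattern were sought among 10317 genes as those at the smallest Euclidean distance in log2 CPM, relative to the control mean, over the 6 libraries. For SFXN2 these were CXCL2 (distance 1.58), CXCL1 (1.94) and the long noncoding RNA CASC19 (2.24), which are not close, since no other gene of this count fell as far. Near SFXN4 were the tRNA methyltransferase gene METTL1 (0.15) and TTPAL (0.16). METTL1 has 19.3% of its exonic bases opposite EEF1AKMT3. SFXN3 had TNKS1BP1, CAPZB and COPG1 at distances of 0.06 to 0.07, and SFXN1 had FAM220A, FAF1 and CDH2 at 0.06 to 0.07. SFXN5 had LSM12P1 (0.08), DCAF12L1 (0.09) and EIF5AL1 (0.10), of which LSM12P1 and EIF5AL1 resemble other genes and may share their reads. Since the libraries form 2 groups, this distance measures mostly the size of the change.

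Genes of the processes that sideroflexins serve were taken from 8 lists with 130 entries. Of all tested genes 40.3% fell and 39.4% rose, and the counts of each list are to be read against these shares. Of 19 tested genes of serine and one-carbon metabolism, which SFXN1 and SFXN3 supply, 15 fell and 1 rose (median log2 fold change -0.65, against -0.02 for all genes). GCSH of the glycine cleavage system changed most among those that fell (-1.83 ± 0.14). Of its exonic bases, 12.0% are shared with AC092718.3 and 11.7% with AC092718.8, on the same strand. DLD, which that system shares with other dehydrogenases, was the member that rose (0.21 ± 0.06). DLD stood at -0.05 under library totals, and a GC offset put it at -0.32. Of 15 genes of heme synthesis and mitochondrial iron, the processes tied to SFXN2, 8 fell and 3 rose (median -0.65), or 8 and 5 with a GC offset. PPOX, an enzyme late in heme synthesis, changed by -3.22 ± 0.18, with 24.3% of its exonic bases on the opposite strand of B4GALT3, and SLC25A38, a glycine carrier for heme synthesis, rose by 1.90 ± 0.09.

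For the processes tied to SFXN4, the shares that rose and fell are to be read against 39.4% and 40.3% of all tested genes. Of 20 complex I assembly genes 10 rose and 9 fell (median 0.27, or 0.00 under library totals and -0.07 under the GC offset). ACAD9, an assembly factor, went from 40.2 ± 1.47 to 4.79 ± 0.287 CPM (SD, n = 3), or by -3.07 ± 0.11 in log2 units, and NDUFAF4 rose by 1.16 ± 0.09 (0.49 with the GC offset). Of 15 iron-sulfur cluster genes 7 rose and 6 fell (median 0.17, or -0.09 with library totals and 0.03 with the offset), with HSCB at 1.40 ± 0.13 and IBA57 at -1.36 ± 0.14. HSCB has 20.6% of its exonic bases opposite CHEK2, and ACAD9 has 10.5% opposite KIAA1257. Of 17 genes of cellular iron handling 8 fell and 7 rose (median -0.07, or -0.34 with library totals), from the ferrireductase STEAP3 (-2.97 ± 0.08) to heme oxygenase HMOX1 (5.61 ± 0.14).

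In the TOM and TIM22 route, through which sideroflexins are imported, 11 of 15 tested genes fell and 3 rose (median -0.36, or -0.63 with library totals), with TIMM13 at -1.55 ± 0.12 and the receptor TOMM70 at 0.67 ± 0.06. With the GC offset these stood at -0.83 and 0.31. TIMM13 shares exonic bases with LMNB2 and TMPRSS9. Without curcumol replicate 2, or with DESeq2, 7 genes of this list fell. The shares of all tested genes were 40.3% lower and 39.4% higher in the edgeR test. Of 12 tested metabolite carriers of other families 7 fell and 4 rose (median -0.57, or -0.25 with the GC offset). With the stricter filter, which leaves genes with a mean below 1 CPM or 50 counts untested, 2 rose. Their ends were SLC25A10 (-2.98 ± 0.20), of whose exonic bases 46.6% belong to another gene as well, and SLC25A18 (3.25 ± 0.28). Among 12 genes of general mitochondrial content 7 rose and 2 fell (median 0.28, or 0.01 with library totals and 0.16 with the offset), with VDAC2 at 1.53 ± 0.05 and SDHA at -1.16 ± 0.07, but 4 rose and 5 fell with library totals.

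The libraries held 16962012 to 17827433 counts, and TMM factors were 1.09 to 1.10 in control and 0.900 to 0.920 in curcumol, so they moved with the treatment. All 10 markers of renal carcinoma and epithelium, among them PAX8 and KRT8, had a mean of at least 1 CPM, and their summed level was 5419 to 5790 CPM in control and 3622 to 4111 in curcumol. Of 5 immune markers only CD14 reached a mean of 1 CPM, and CD3E was at 0 in all libraries. Their sum was 0.0537 to 0.155 CPM in control and 6.08 to 6.58 in curcumol. Endothelial markers (0 of 4 at 1 CPM) summed to 0.0515 to 0.155 and 0.128 to 0.819 CPM, and fibroblast markers (2 of 5) to 7.06 to 8.27 and 5.88 to 18.3 CPM. The part of these shifts in the sideroflexin values was not tested.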

How the data were processed

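RNA-seq of 3 control and 3 curcumol libraries of ACHN cells was read from 1 table of raw counts per Ensembl gene that the authors deposited, not normalized. The submitters' processing notes name GRCh38 (hg38) as the build. No aligner, counter or strand setting is named in the sources. Positions and exons are from GENCODE 29, on the same build. Promoters are from RefSeq. Genes were filtered with filterByExpr, given TMM factors, and edgeR 4.0.16 (R 4.3.3) ran its robust quasi-likelihood test over 15160 genes, with Benjamini-Hochberg adjustment and a threshold of 0.05. SE is the absolute log2 fold change over the square root of F. Log2 CPM used a prior count of 2. Proteins were translated from GENCODE transcripts and aligned with Biopython 1.88 (BLOSUM62). No pair of replicates was a repeat of 1 library, since chi-square over its degrees of freedom was 3.68 to 8.82.

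The members and lists were chosen with earlier results of these data known. Named genes were all members, and for each member the 3 most similar genes with a mean of at least 100 counts. The nearest tested coding gene on each side was also named, and of each list the largest rise and fall that passed. AC022239.1 was named for its lowest fitted change. A similar gene is not reported here. On simulated counts with 200 changed genes, of 14822 run, the test found 72.9% of the 96 genes changed 1.5-fold and 100% of the 95 changed 4-fold, and 7 of its 172 calls were false. The simulation used the same dispersion for every gene and changed far fewer genes than the 79.7% called in the data. Its rates therefore do not carry over to the data. Alternatives were DESeq2 1.42.0, limma-voom (limma 3.58.1), other scalings and filters, a replicate block, a GC offset (longest transcript, spline with 5 degrees of freedom), each library left out, and other lengths.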

Additional observations from a re-analysis of the deposited data

How the results depend on the processing

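Over 14 alternatives, 53 of 56 log2 fold changes of SFXN1, SFXN3, SFXN4 and SFXN5 kept their direction and their side of the threshold. SFXN2, which has no test, ranged from -6.58 to -6.24. The exceptions were all in SFXN5, which reversed to 0.19 with a GC offset and was lost without control replicate 1 and without curcumol replicate 3, with a range of -0.36 to -0.22 when 1 library was left out. Same-numbered libraries did not deviate together (r = 0.024, -0.012 and 0.075), so the numbers were not taken as pairs. With the replicate block SFXN4 stood at -2.20 and SFXN5 at -0.29, and the block changed no call of a member. List counts stayed within 1.5 times in 213 of 224 values. Levels per kilobase rest on the annotated length, and SFXN2 in curcumol rests on 6 or 7 counts per library, where 3 libraries per group limit the precision.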
